A study of Mus musculus with 4 samples.

Results

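Autophagy delivers cytoplasmic cargo to the lysosome in double-membraned vesicles, and the genes described here encode its core machinery together with the kinase mTORC1 that holds it in check. When amino acids are plentiful, Rag GTPases bring mTORC1 to the lysosome, Rheb activates it there and the kinase restrains the ULK complex, whereas the TSC complex switches Rheb off. Once released, the ULK complex and a class III PI3-kinase start a membrane that ATG9 vesicles and lipid transfer feed, ubiquitin-like conjugation attaches ATG8 proteins to it, receptors load the cargo and SNARE proteins fuse the closed autophagosome with the lysosome. Neurons depend on this clearance because they do not divide, and the lysosome is the organelle affected in Mucopolysaccharidosis type II, in which the lysosomal enzyme iduronate 2-sulfatase, encoded by Ids, is missing.

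The members were a list of 46 genes of this pathway, drawn up with earlier results of these data known and looked up in a table of 12700 genes, in which 44 were present. Atg7 and Gabarapl2 were not analysed here. All 44 members had at least 100 reads in every library, so no filter on low counts removed any of them. The measurement was RNA-seq of brain mRNA from C57BL/6 mice aged 9 months. Group CxH was cerebral cortex of Ids-/- mice, a knock-out called Ids-ko, and CxWT the cortex of wild type (WT) mice. Group MH was the midbrain, diencephalon and hippocampus (area M) of Ids-ko mice and MWT the same area of WT mice. Each group was 1 library made from the RNA of several mice pooled, so any comparison below is between libraries and not between conditions, and no error between animals could be had.

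Between 16380080 (MWT) and 23475080 (CxH) reads fell on genes, of which the members held 83177 in MWT, 99137 in CxWT, 104174 in MH and 112985 in CxH. Levels are given as RPM, a gene's reads scaled by the aligned reads of its library, and as RPM per kilobase of transcript (RPKM) wherever one gene is set against another. The depth put the floor of 3 reads between 0.0779 and 0.104 RPM, and every member lay far above it, the lowest value being Atg10 with 119 reads in CxH. Differences are log2 ratios of RPM, each with the standard error (SE) that counting alone gives. A gene was called when a likelihood ratio test of its 2 Poisson counts passed 0.05 and its log2 ratio was 0.7 or more in size, which is 1.62-fold. Intervals, errors and floors cover counting error only.

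The libraries did not all follow their labels. Ids had 135 RPM in CxH and 354 in CxWT, but 368 in the library labelled MH and 155 in the library labelled MWT. The counts are per gene, and whether reads came from parts of Ids that the knock-out may leave intact was not examined. The 14 markers of cortical neurons summed to 2154 RPM in CxH and 1960 in MH, against 391.7 in CxWT and 332 in MWT. The 15 markers of midbrain and diencephalon in the table summed to 29.0 RPM in CxH and 41.1 in MH, against 516 in CxWT and 450 in MWT, with En1 at 0 in at least 1 library. The cortex libraries of the Ids-ko and WT mice thus differed in regional markers much as the M libraries did, while CxH resembled MH and CxWT resembled MWT. By their level of Ids, in contrast, CxH went with MWT and MH with CxWT. Whether libraries or dissections were exchanged was not tested. Markers of oligodendrocytes summed to 4865 and 5066 RPM in CxH and MH and to 9260 and 7395 in CxWT and MWT, and those of microglia to 877 and 539 RPM in CxH and MH and to 464 and 710 in CxWT and MWT. In the order CxH, CxWT, MH, MWT, markers common to neurons summed to 3438, 3218, 3448 and 3369 RPM, astrocyte markers to 3143, 2235, 2623 and 2822, endothelial markers to 196, 142, 151 and 174, and the 2 red cell markers in the table to 125, 254, 186 and 77.1. For this reason all 6 pairs of libraries are given, and libraries are named by their labels. The part that tissue and cell content had in the members' ratios was not tested, and in bulk RNA fewer cells of a type and less RNA per cell cannot be told apart.

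Among the members, Rragb moved farthest, and its sequence is shown first because it has a close relative, Rraga, with which short reads could be confused. Both encode the Rag subunit that pairs with RagC or RagD, and only Rragb is a member. Over 942 aligned coding bases the genes were 82.7% identical. A stretch of 60 coding bases in which they are much alike is printed below, bases 1015 to 1074 of the Rragb and 832 to 891 of the Rraga coding sequence in GENCODE vM1 (mm9), with capitals marking the 4 bases that differ.

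Rragb: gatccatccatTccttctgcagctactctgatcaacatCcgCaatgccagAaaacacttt

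Rraga: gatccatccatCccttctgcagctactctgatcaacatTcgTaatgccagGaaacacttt

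No stretch of 50 bases among the 2209 in the Rragb transcript matched Rraga with at most 2 mismatches, the number that the alignment allowed, and the closest had 3. Shorter stretches, as from shorter or trimmed reads, were not searched.

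Rragb, on chromosome X from 149574524 to 149606486 (mm9, + strand), had 894 reads in CxH against 2048 in CxWT, and 1064 in MH against 2000 in MWT. These are 23.2 RPM in CxH (95% exact interval 21.7 to 24.8), 60.9 in CxWT (58.3 to 63.6), 28.5 in MH (26.8 to 30.2) and 69.1 in MWT (66.1 to 72.2). Both Ids-ko libraries were low and both WT libraries high, with no overlap of the counting intervals. The log2 ratio was -1.39 ± 0.0578 between CxH and CxWT and -1.28 ± 0.0547 between MH and MWT, or 2.62-fold and 2.43-fold lower. Crossing the areas gave -1.57 between CxH and MWT and -1.10 between MH and CxWT, while within a genotype label it was -0.29 between CxH and MH and -0.18 between CxWT and MWT. Rragb was thus called in each of the 4 pairs that set a library labelled Ids-ko against one labelled WT, and in neither of the other 2. The same 4 pairs set a library high in cortical neuron markers against one high in midbrain and diencephalon markers, so the genotype label and the regional content cannot be told apart for this or any other member.

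The promoter of Rragb is printed because it held 3 copies of the E-box CACGTG, the letters bound by TFEB, TFE3 and other factors of their class, and that of Hif1a because it too fell in both areas and held 1 copy. Each sequence has 300 bases and spans the start of the gene, from RefSeq on GRCm38.p6, with capitals marking CACGTG and the core ACGTG to which hypoxia-inducible factors bind, on the strand shown. Rragb lies at chrX:153139708-153140007 and Hif1a at chr12:73907617-73907916, both on the + strand.

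Rragb: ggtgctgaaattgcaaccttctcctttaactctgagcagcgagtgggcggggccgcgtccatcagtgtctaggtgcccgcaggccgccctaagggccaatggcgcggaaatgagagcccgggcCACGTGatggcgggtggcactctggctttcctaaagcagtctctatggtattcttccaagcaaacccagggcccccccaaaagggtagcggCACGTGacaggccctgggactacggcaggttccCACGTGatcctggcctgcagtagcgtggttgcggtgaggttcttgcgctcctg

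Hif1a: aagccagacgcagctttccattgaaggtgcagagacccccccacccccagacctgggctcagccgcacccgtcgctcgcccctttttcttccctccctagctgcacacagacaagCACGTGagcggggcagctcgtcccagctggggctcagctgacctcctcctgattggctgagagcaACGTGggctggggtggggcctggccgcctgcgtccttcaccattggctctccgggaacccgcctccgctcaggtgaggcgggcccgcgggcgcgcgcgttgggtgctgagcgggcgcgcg

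Searched on both strands, CACGTG was present in 8 of the 40 promoters found for 38 members, those of Atg3, Atg5, Atg14, Bnip3, Hif1a, Rheb, Rragb and Rragc. This is 20%, against 7.15% of all 32851 promoters of the same length, a set that also includes promoters of genes absent from the table. ACGTG, which lies within every CACGTG, was present in 18 of the 40 (45%) against 19.6% of all promoters. The CLEAR element, a longer motif of lysosomal genes that contains CACGTG, was found in 0 of the 40 and in 0.326% of all promoters. The promoter of Atg10 held none of these motifs. These are matches of letters, and binding was not measured.

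The first comparison sets the library labelled cortex of Ids-ko mice against that labelled cortex of WT mice, which differed in regional markers as given above. Between CxH and CxWT 7 of 44 members were called (15.9%), against 20.9% of all 12700 genes. Atg101 was the 1 member called higher, a direction that held 9.46% of all genes, and Atg3, Atg10, Optn, Stx17, Rragb and Hif1a were called lower, as were 11.5% of all genes. The median log2 ratio of the members was 0.02, against -0.09 for all genes, and the median size of the ratio was 0.211, against 0.345. Most of the machinery differed little between these libraries, with 30 members under 0.3 in size. Scaling moved this comparison: with TMM factors in place of aligned reads only Atg101, Atg3 and Rragb were called, and the genes of the whole table called higher and lower went from 1201 and 1457 to 1447 and 1135.

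The same comparison in area M, between MH and MWT, called 8 of 44 members (18.2%), against 25% of all genes. Atg9a, Atg2a and Tsc2 were called higher, as were 12.3% of all genes, and Atg10, Rragb, Rragc, Hif1a and Bnip3 lower, as were 12.7%. The members' median was -0.04, against -0.07 for all genes, and their median size 0.288, against 0.396. Here 24 members stayed under 0.3 in size, and with TMM factors Rragc and Bnip3 were no longer called. With column totals the members' split went from 3 higher and 5 lower to 1 and 8. The genes of the whole table called higher and lower were 1556 and 1614 by aligned reads, 1377 and 1896 by column totals and 1774 and 1386 with TMM factors. In both areas the share of members called lay somewhat below that of the whole table, a difference that was not tested. The whole table also holds genes with few reads, 35 of them at 0 in CxH, which the members do not. Neither the shares nor the median sizes are thus set against genes of like depth.

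Atg10, Rragb and Hif1a were called in both areas, all lower in the libraries labelled Ids-ko, and no member was called in opposite directions. These 3 are 6.82% of the 44 members, against 12.7% of all genes called in both areas in the same direction and 0.543% in opposite directions. A further 9 members (20.5%) were called in 1 area only, as were 19.4% of all genes, and whether their ratios differed between areas was not tested. Of the 44 members, 13 had ratios of opposite sign in the areas. A fit of the genotype label over the 4 libraries with area as a block (edgeR's quasi-likelihood test, chosen after seeing the data) left 1 residual degree of freedom. It called 5 of 44 members (11.4%) at an adjusted p under 0.05, against 18.7% of all genes. Rragb at -1.33 (adjusted p = 0.00207), Hif1a at -0.84 (0.0127), Atg3 at -0.74 (0.0223) and Stx17 at -0.63 (0.0389) were lower and Atg101 at 0.70 (0.0421) higher, all on the log2 scale in the libraries labelled Ids-ko, by edgeR with Benjamini-Hochberg adjustment. Atg10 was at -0.80 with an adjusted p of 0.0603. The study dissected both areas from the same brains, so the fit takes libraries of the same pooled animals as replicates of a label. Its p-values therefore do not cover variation between animals. In this fit the genotype label and the regional markers cannot be told apart, and Ids itself goes against the labels in M.

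**Figure D1:**
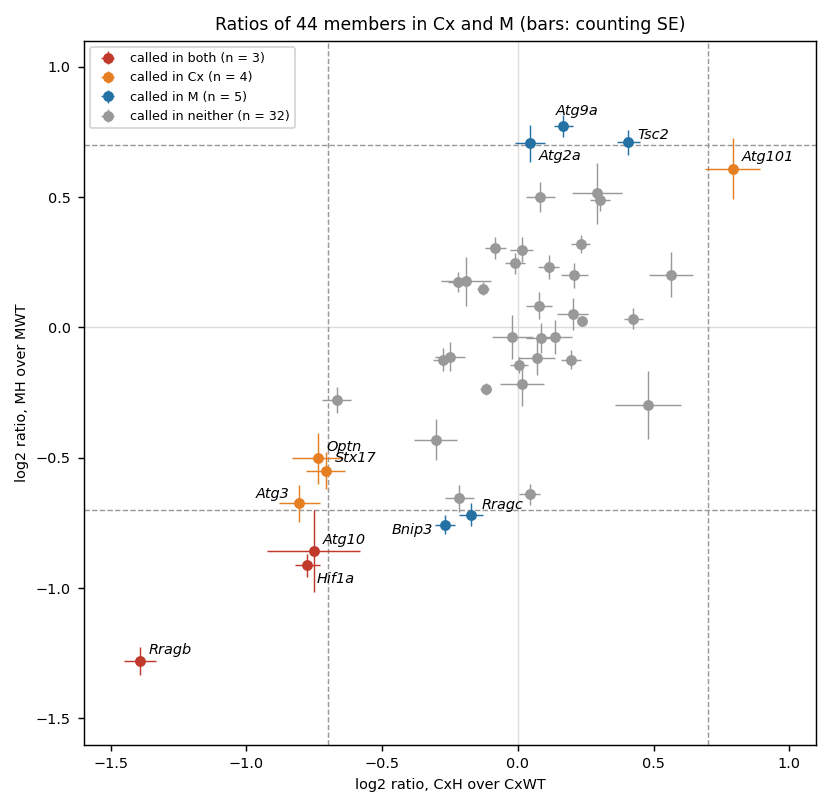
Log2 ratios of the 44 members, CxH over CxWT on the x axis and MH over MWT on the y axis, with bars for the counting SE and dashed lines at 0.7 in size. The 3 members called in both areas lie at the lower left with Rragb farthest out, 4 were called in Cx alone, 5 in M alone, and the 32 others lie nearer the centre.

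The pairs within a genotype label held few calls. Between CxH and MH 0 of 44 members were called, against 3.5% of all genes, and the ratios ran from -0.55 for Rb1cc1 to 0.51 for Vamp8. Between CxWT and MWT 1 of 44 was called, Atg2a at 0.83, against 7.54% of all genes, with Atg9a just short of the threshold at 0.69. The crossed pairs were unequal. Between CxH and MWT 11 of 44 members were called (25%), against 30.7% of all genes, 5 of them higher (15.6% of all genes) and 6 lower (15.1%). Between MH and CxWT Rragb was the 1 member called, against 15.3% of all genes. Over the 6 pairs 14 members (31.8%) were called at least once and 30 in none, against 41.8% of all genes called at least once. The split of the whole table's calls moved with the scaling in these pairs too. The genes called higher and lower went from 309 and 135 by aligned reads to 257 and 183 by column totals between CxH and MH, from 690 and 268 to 480 and 390 between CxWT and MWT, and from 1980 and 1915 to 1609 and 2504 between CxH and MWT. Between MH and CxWT they went from 814 and 1129 to 1013 and 855 with TMM factors.

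**Figure D2:**
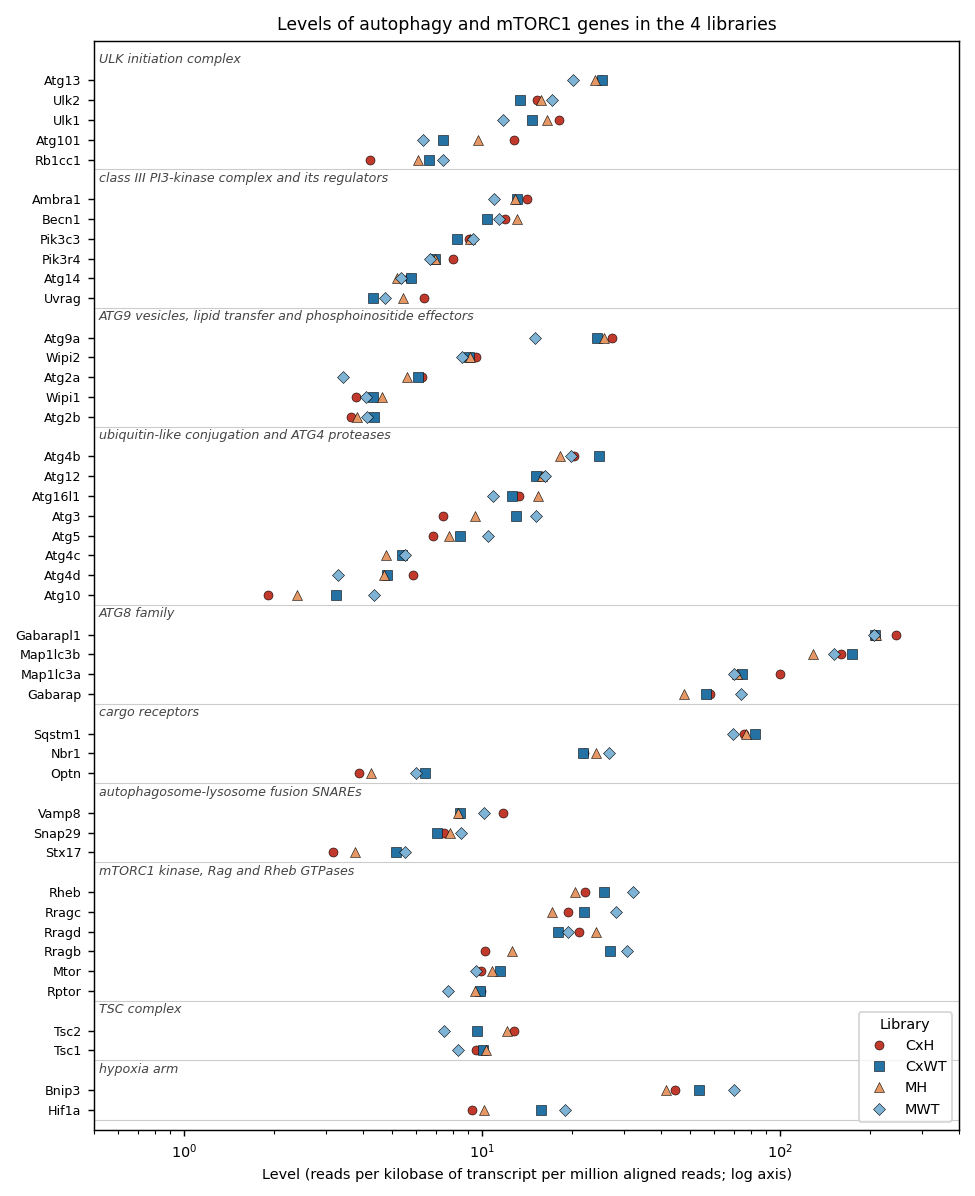
Level of each of the 44 members in RPKM on a log axis, grouped by role, with 1 point for each library (CxH, CxWT, MH, MWT). Levels span from 1.92 for Atg10 in CxH to 245 for Gabarapl1 in CxH, and for Rragb and Hif1a both Ids-ko points lie left of both WT points.

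Within the ULK complex, which starts autophagy, Atg101 and Rb1cc1 were called in at least 1 pair. Atg101, the subunit that steadies ATG13 (chromosome 15, 101114732 to 101121365), had 15.8 RPM in CxH against 9.10 in CxWT, and 11.9 in MH against 7.81 in MWT. Both Ids-ko libraries lay above both WT libraries. The difference was called in Cx, at 0.79 ± 0.101 on the log2 scale, and the value of 0.61 ± 0.118 in M fell short of the threshold. Rb1cc1, the large scaffold also known as FIP200 (chromosome 1, 6196278 to 6266729), had 32.0 RPM in CxH against 50.8 in CxWT, and 46.6 in MH against 56.5 in MWT. CxH stood below the other libraries, with a log2 ratio of -0.67 in Cx, just under the threshold, -0.28 in M and -0.82 between CxH and MWT, where it was called. The kinase genes Ulk1 and Ulk2 and the regulatory subunit gene Atg13 were called in none of the 6 pairs. Ulk1 was at 0.30 in Cx and 0.49 in M, and Ulk2 at 0.20 and -0.12. Of the reads on both kinases, Ulk1 held 51.9% in CxH against 50% in CxWT, and 48.8% in MH against 38.4% in MWT. MWT stood apart in this share, which is not corrected for GC content. After the correction described below, the ratios in M were -0.08 for Ulk1 and -0.078 for Ulk2.

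No member of the class III PI3-kinase complex was called in any pair. This complex makes the lipid phosphatidylinositol 3-phosphate on the growing membrane, with Pik3c3 as its kinase and Becn1 as its scaffold. The largest ratio was that of Uvrag, a subunit that directs the complex to endosomes, which had 21.9 RPM in CxH against 14.8 in CxWT, and 18.8 in MH against 16.3 in MWT. In Cx its log2 ratio was 0.57, and in M 0.20. Atg14, the subunit that directs the kinase to autophagosomes, had 19.7, 19.99, 18.0 and 18.4 RPM in the order CxH, CxWT, MH, MWT, and its ratios of -0.02 and -0.04 were the lowest of the complex. Ambra1, a regulator of Becn1, had 73.8, 68.2, 67.1 and 57.2 RPM in the same order, and 0.23 in M was the highest of the complex there. Becn1 was at 0.21 in Cx and 0.20 in M, although 43.9% of its exon bases are shared with Cntd1 on the opposite strand.

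In the group that supplies membrane, Atg9a and Atg2a were low in MWT alone. Atg9a, which encodes the scramblase that travels in vesicles (chromosome 1, 75177440 to 75188497), had 103 RPM in CxH against 91.9 in CxWT, and 97.0 in MH against 56.8 in MWT. Atg2a, one of the paired genes for the lipid transfer protein (chromosome 19, 6241668 to 6262335), had 40.1, 38.9, 35.7 and 21.9 RPM in that order. For both genes 3 libraries lay close together and MWT below them. The log2 ratio in M was 0.77 ± 0.0429 for Atg9a and 0.71 ± 0.0696 for Atg2a, and in Cx 0.17 and 0.04, neither called. Atg2a was also called between CxWT and MWT, and both genes between CxH and MWT. The paralog Atg2b had 37.1, 44.1, 38.7 and 41.8 RPM, the lowest ratio of the group in both areas at -0.25 and -0.11, neither called. Atg2a accordingly held 51.9% of the reads of the pair in CxH against 46.8% in CxWT, and 48.0% in MH against 34.3% in MWT. This share is not corrected for GC content either. After the correction, the ratios in M were -0.055 for Atg2a and -0.309 for Atg2b. Wipi1 and Wipi2, which read the lipid made by the PI3-kinase, were called in no pair.

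Of the conjugation genes, Atg3 and Atg10 were called lower. Atg3, the E2-like enzyme that passes ATG8 proteins to lipid (chromosome 16, 45158898 to 45188651), had 15.3 RPM in CxH against 26.7 in CxWT, and 19.5 in MH against 31.2 in MWT. Both Ids-ko libraries lay below both WT libraries. The log2 ratio was -0.80 ± 0.0766 in Cx, where it was called, and -0.67 ± 0.0719 in M, just under the threshold. Atg10, the E2-like enzyme that joins ATG12 to ATG5 (chromosome 13, 91074954 to 91363592), had 3.09, 5.21, 3.85 and 6.98 RPM in the order CxH, CxWT, MH, MWT. The order of the libraries was as for Atg3, and the ratios were -0.75 ± 0.171 in Cx and -0.86 ± 0.157 in M, the widest errors among the called members, at counts of 119, 175, 144 and 202 reads.

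The other conjugation genes were steadier. Atg5 was at -0.30 in Cx and -0.43 in M, Atg12 at 0.09 and -0.04, and Atg16l1 at 0.08 and 0.50, none of them called. Of the ATG4 proteases, which trim ATG8 proteins and free them from lipid, Atg4d (chromosome 9, 21069743 to 21078812) had 14.96 RPM in CxH against 12.2 in CxWT, and 11.9 in MH against 8.36 in MWT. Its ratios of 0.29 and 0.51 were the highest of the group in both areas and it was called between CxH and MWT alone, at 0.84. Of its exon bases, 31.1% are shared with Kri1 on the opposite strand. Atg4b and Atg4c were called in no pair.

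The ATG8 family, whose proteins coat the membrane and bind cargo receptors, included the most abundant members and no call. Gabarapl1 had the highest level of all members in every library, at 245 RPKM in CxH against 208 in CxWT, and 210 in MH against 206 in MWT. Map1lc3b followed with 161, 174, 129 and 152 RPKM, Map1lc3a with 100, 74.8, 71.6 and 70.0, and Gabarap with 58.4, 56.7, 47.5 and 74.0. MWT was the 1 library in which Gabarap exceeded Map1lc3a. In RPM, Map1lc3a had 112 in CxH against 83.2 in CxWT, and 79.6 in MH against 77.8 in MWT, and its ratio of 0.42 ± 0.0351 was the highest of the family in Cx. Gabarap had 78.8, 76.5, 64.2 and 100 RPM, highest in MWT, and a ratio of 0.04 in Cx and -0.64 in M, just under the threshold. Map1lc3b had 275, 298, 221 and 260 RPM and ratios of -0.12 and -0.24, but 39.5% of its transcript matched other places in the genome at 96% identity or more, which makes its count uncertain.

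The cargo receptors link ubiquitinated cargo to ATG8 proteins. Sqstm1, which encodes p62, had 202 RPM in CxH against 221 in CxWT, and 206 in MH against 186 in MWT. Its level was nearly flat, at -0.13 ± 0.0234 in Cx and 0.15 ± 0.0256 in M, with 17.3% of its exon bases shared with a gene on the opposite strand. Nbr1 was as flat, with 105, 105, 115 and 127 RPM and ratios of 0.00 and -0.14. Optn, which encodes optineurin (chromosome 2, 4941688 to 4985097), had 10.1 RPM in CxH against 16.9 in CxWT, and 11.1 in MH against 15.7 in MWT. Here too the WT libraries were the higher ones, with a log2 ratio of -0.74 ± 0.0949 in Cx, where it was called, and of -0.50 ± 0.0979 in M, where it was not.

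Of the SNARE genes for fusion with the lysosome, Stx17 alone was called. Stx17, the syntaxin of the closed autophagosome (chromosome 4, 48137787 to 48199379), had 18.3 RPM in CxH against 29.8 in CxWT, and 21.7 in MH against 31.8 in MWT. The Ids-ko libraries were again the low ones, at -0.71 ± 0.071 in Cx, just past the threshold, and at -0.55 ± 0.0695 in M, short of it. Its partners were called in no pair. Snap29 had 25.5, 24.3, 26.8 and 29.1 RPM in the order CxH, CxWT, MH, MWT, with ratios of 0.07 and -0.12. Vamp8, the SNARE on the lysosome, had 9.66, 6.93, 6.80 and 8.36 RPM and ratios of 0.48 ± 0.12 in Cx and -0.30 ± 0.13 in M, neither called.

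On the mTORC1 side, the kinase gene Mtor and the scaffold gene Rptor were steady, with ratios of -0.22 and 0.01 in Cx and 0.17 and 0.30 in M. Besides Rragb, Rragc was called, in M only. Rragc, which encodes one of the partners that RagA or RagB binds (chromosome 4, 123594689 to 123614240), had 57.5 RPM in CxH against 64.8 in CxWT, and 50.7 in MH against 83.4 in MWT. MWT was the high library, and the ratio was -0.72 ± 0.0443 in M and -0.17 in Cx. Its counterpart Rragd had 107, 91.3, 122 and 98.2 RPM in the order CxH, CxWT, MH, MWT, and ratios of 0.23 and 0.32, the highest of the group. Rheb was at -0.22 in Cx and -0.66 in M, not called.

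The Rag genes shifted in share. Of the reads on Rraga and Rragb, Rragb held 25.2% in CxH (95% exact interval 23.8 to 26.7), 40.2% in CxWT (38.8 to 41.5), 31.9% in MH (30.3 to 33.5) and 38.3% in MWT (36.9 to 39.6). Rraga itself had 2652, 3049, 2273 and 3228 reads in the same order, and was called lower in M at -0.87, or -0.55 after the correction described below. Of the reads on Rragc and Rragd, Rragd held 65.1% in CxH against 58.5% in CxWT, and 70.7% in MH against 54.1% in MWT. Both shares separated CxH and MH from CxWT and MWT, as the regional markers did.

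**Figure D3:**
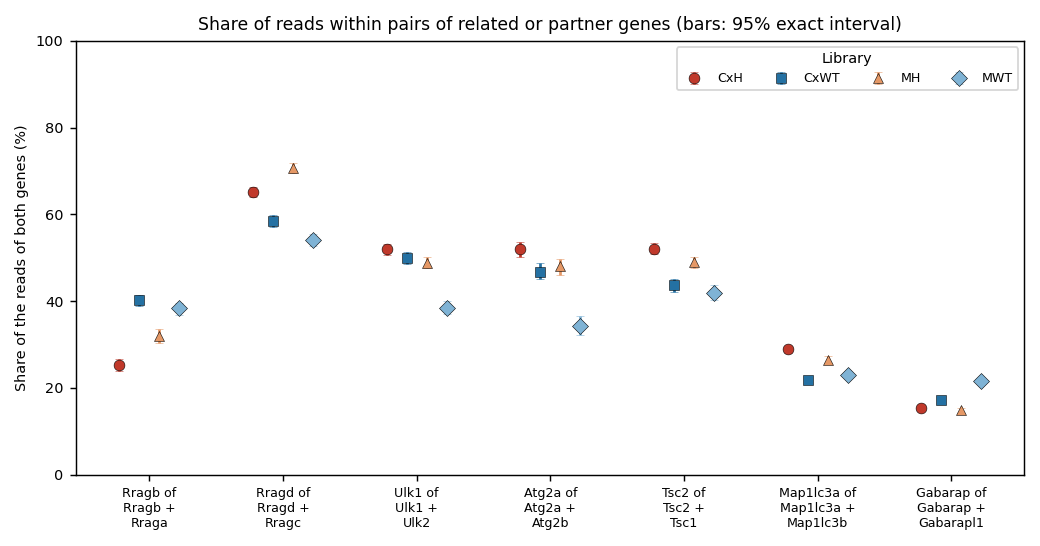
Share of reads, in percent, that the first gene held of the reads on both genes of a pair, with 1 point for each library and 95% exact intervals. Shares are not corrected for GC content. Rragb has its low points in CxH (25.2%) and MH (31.9%), Rragd its high points there, and for Ulk1 and Atg2a the MWT library lies below the others.

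Of the TSC complex, which turns Rheb off, 1 of the 2 genes was called in M. Tsc2, the subunit that acts on Rheb (chromosome 17, 24732882 to 24769574), had 79.8 RPM in CxH against 60.2 in CxWT, and 75.9 in MH against 46.4 in MWT. Both Ids-ko libraries lay above both WT libraries, by 0.71 ± 0.0478 in M, where it was called, and by 0.41 ± 0.0413 in Cx, where it was not. Of its exon bases 9.11% are shared with Pkd1 on the opposite strand. Tsc1, its scaffold, had 73.5, 77.8, 79.4 and 64.3 RPM and ratios of -0.08 and 0.31, so that Tsc2 held 52.1% of the reads of both genes in CxH and 48.9% in MH, against 43.6% in CxWT and 41.9% in MWT.

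Of the hypoxia arm, Hif1a was called lower in both areas and Bnip3 in M. Hif1a, the oxygen-regulated transcription factor whose promoter is printed above (mm9 chromosome 12, 75002362 to 75048517), had 43.6 RPM in CxH (95% exact interval 41.5 to 45.7), 74.6 in CxWT (71.7 to 77.6), 47.9 in MH (45.7 to 50.2) and 90.1 in MWT (86.7 to 93.7). Both Ids-ko libraries lay below both WT libraries, with no overlap of the counting intervals. The log2 ratios were -0.78 ± 0.0455 in Cx, -0.91 ± 0.0443 in M and -1.05 between CxH and MWT. Between MH and CxWT its value of -0.64 missed the threshold. Bnip3, a mitophagy receptor that Hif1a induces (chromosome 7, 146082519 to 146101202), had 77.9, 93.7, 73.0 and 123 RPM in the order CxH, CxWT, MH, MWT. Its ratio was -0.27 ± 0.0368 in Cx and -0.76 ± 0.0367 in M, where it was called. Since 94.2% of its transcript matched other places in the genome, its count is uncertain.

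The ratios of the members ran with the GC content of their transcripts. GC content ranged from 39.1% (Rb1cc1) to 63.1% (Map1lc3a) with a median of 50.9%, against 50.7% for all genes. Spearman's correlation between GC content and log2 ratio, across the 44 members, was 0.616 in Cx and 0.744 in M, against 0.428 and 0.466 across all genes. It was 0.88 between CxH and MWT, the pair with the most calls, against 0.656 across all genes. It was 0.741 against 0.604 between CxWT and MWT, 0.586 against 0.542 between CxH and MH, and 0.392 against 0.156 between MH and CxWT. The members are points from the same libraries, so these are descriptions. The correlations across all genes include genes with few reads, which the members do not, so the sets are unlike. In M the 3 members called higher had a median GC content of 57.5% and the 5 called lower 41.6%, and between CxH and MWT these medians were 57.8% and 42.4%.

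**Figure D4:**
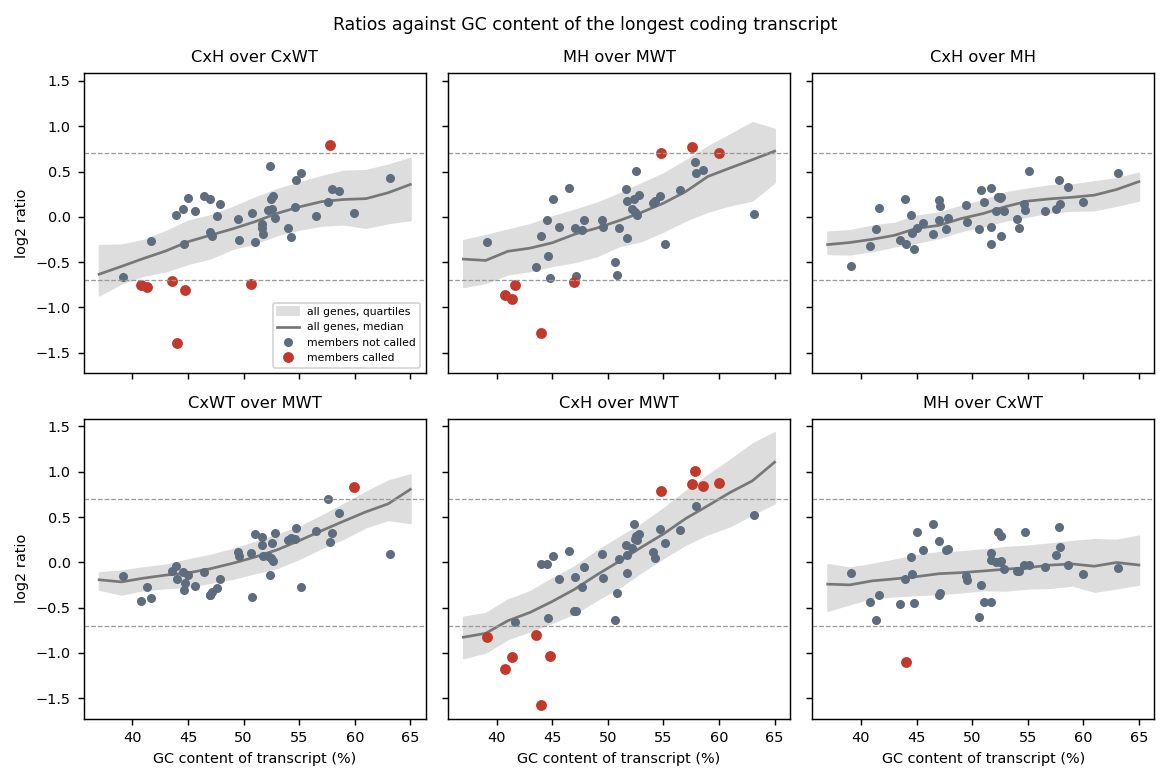
Log2 ratio against the GC content (%) of the longest coding transcript in the 6 pairs of libraries. Points are the 44 members, red where called, and the line and band are the median and quartiles of all genes with at least 100 reads, in bins 2 percentage points wide. In MH over MWT and CxH over MWT the members called higher lie at higher GC content than those called lower, and Rragb, at 44.02%, lies below the band in each pair of an Ids-ko with a WT library.

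The ratios were therefore also taken with the effects of GC content and transcript length removed, as fitted over genes with at least 100 reads. Between CxH and CxWT 2 members were then called, Optn at -0.76 and Rragb at -1.13, against 17.4% of 12222 genes. Between MH and MWT Rragb was the 1 member called, at -0.85, against 18.2% of genes. Rragb was also the 1 call between CxH and MWT at -1.0, against 16.3%, and between MH and CxWT at -0.98, against 14.7%. No member was called between CxH and MH (2.43% of genes) or between CxWT and MWT (3.26%). Hif1a kept its direction at -0.41 in Cx and -0.59 in M, as did Atg10 at -0.35 and -0.21, but both missed the threshold. The other members called before the correction fell under the threshold, and Atg2a changed sign, from 0.71 to -0.05 in M. The members' median size was then 0.234 in Cx, against 0.283 for all genes, and 0.157 in M, against 0.301.

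**Figure D5:**
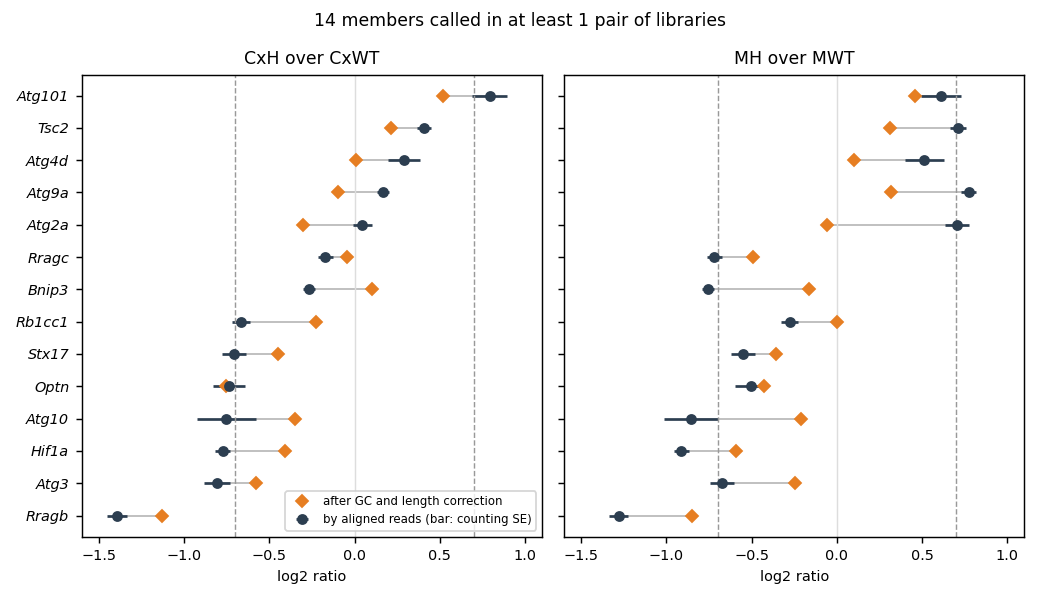
Log2 ratios, CxH over CxWT (left) and MH over MWT (right), of the 14 members called in at least 1 pair, before correction (circles, with counting SE) and after correction for GC content and length (diamonds). Dashed lines mark 0.7 in size, and after correction Rragb stays beyond the line in both panels and Optn in the left one.

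Beyond the members, a second list held 81 further genes of the same pathways, of which 77 were in the table. Of these 77, 3 were called higher and 5 lower between CxH and CxWT, against 9.46% and 11.5% of all genes. Between MH and MWT 7 were called higher and 10 lower, against 12.3% and 12.7% of all genes. Camkk2, a calcium-dependent kinase that activates AMPK, had 3161 reads in CxH against 814 in CxWT, and 2456 in MH against 473 in MWT, with log2 ratios of 1.76 ± 0.0567 and 2.01 ± 0.0724. Ddit4l, an inhibitor of mTORC1, had 789, 154, 616 and 177 reads and ratios of 2.16 ± 0.127 and 1.43 ± 0.123. Both were high in the Ids-ko libraries of both areas. Fundc1, a receptor for mitophagy, had 551, 1273, 572 and 1308 reads and ratios of -1.40 ± 0.0736 and -1.56 ± 0.0723, low in the same libraries. The ER-phagy receptor gene Fam134b was at -0.92 and -1.02, and Prkaa1, for a catalytic subunit of AMPK, at -0.95 and -0.71. Foxo3, a transcription factor for autophagy genes, was called in M at 1.27, and Eif4ebp1, for a target of mTORC1, in Cx at 1.25. Hmgb1 and Lamtor5 were called in M, at -1.11 and -1.10, and so was Akt1s1, for an inhibitor within mTORC1, at 0.95. Foxo3, Akt1s1 and Lamtor5 were also called between the WT libraries, CxWT against MWT, at 1.01, 0.93 and -0.79. After the correction for GC content and length, 3 of the 77 were called higher and 3 lower in Cx, where 17.4% of genes were called, and 4 and 1 in M, where 18.2% were. Of the genes named here, 5 lost their calls in these areas. Fam134b went to -0.67 in Cx and -0.69 in M, just short of the threshold, and stayed called between MH and CxWT at -0.74. Lamtor5 went to -0.685, Hmgb1 to -0.61 and Akt1s1 to 0.40 in M, and Prkaa1 to -0.54 in Cx and -0.35 in M.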

How the data were processed

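Pooled brain RNA of 4 groups, 1 library each, was measured on a SOLiD 3 Plus instrument. The authors aligned reads passing quality control to NCBI37/mm9 with PASS and deposited counts of reads aligned to a single gene, without normalization, for genes covered over most of their length; the annotation and the use of strand in counting are not given in the sources used here. The 46 members, the 81 further genes and the marker lists were chosen with earlier results of these data known.

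Gene IDs were named through RefSeq (12690 of 12700). Positions, GC content and length came from GENCODE vM1 on mm9, for 96.2% of genes, using the longest coding transcript. Counts were divided by the aligned reads that the study lists for each library. The likelihood ratio test, with p under 0.05 unadjusted and a log2 ratio of 0.7, follows the study's methods and was run on every gene, with a count of 0 set to 1 for the ratio. GC content and length were corrected with polynomials of degree 3 fitted over genes with at least 100 reads. A member got its value in every library if called in any pair or highest or lowest of its role in Cx or M, and of the further genes the 10 largest called with at least 100 reads were named. Other settings were column totals, TMM factors (edgeR 4.0.16), DESeq2 1.42.0 size factors, a minimum of 100 reads, a log2 threshold of 1, Benjamini-Hochberg adjustment, edgeR's exact test with an assumed coefficient of variation of 0.2, and 0.5 added to every count. A fit of the genotype label with area as a block (glmQLFit and glmQLFTest of edgeR on the deposited counts, scaled by aligned reads) was added after the data were seen. The likelihood ratio test, the correction and the block fit were tried on simulated counts with changes larger than the 0.7 threshold. That checks the steps and not the calls made on these libraries. Copies were searched with BLAST 2.17.0, at 96% identity over 50 bases or more. R 4.3.3 and Python 3.11.15 were used, with scipy 1.17.1, numpy 2.4.6, matplotlib 3.10.9 and pandas 2.3.3.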

Additional observations from a re-analysis of the deposited data

How the results depend on the processing

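The study dissected both areas from the same brains. With area as a replicate block, chosen after seeing the data, edgeR called 5 members, 1 higher and 4 lower in the libraries labelled Ids-ko. That fit had no separate animals as replicates. Leaving out a library removes its 3 pairs and does not alter the others as scaled by aligned reads. Of the 7 members called between CxH and CxWT, 3 were called with TMM factors, 3 with DESeq2 size factors, 1 at a log2 threshold of 1, 1 with an assumed coefficient of variation of 0.2 and 2 with the correction for GC content and length. Of the 8 between MH and MWT these last 3 settings left 1, 2 and 1. Between CxWT and MWT the threshold of 1 and the correction each left 0 of 1, and between CxH and MWT they left 5 and 1 of 11. The correction turned Atg2a to -0.05 between MH and MWT and to -0.04 between CxH and MWT. Over the 6 pairs there were 28 member calls, of which 25 remained with column totals, 22 with TMM factors, 22 with DESeq2 size factors, 13 with the assumed variation, 8 at the threshold of 1, 5 after the correction, and 28 with the read minimum, adjusted p or added count. The scaling moved the median of all genes by over 0.1 in 2 pairs, with a shift of -0.108 for column totals between CxH and MWT and of 0.109 for DESeq2 size factors (0.108 for TMM factors) between MH and CxWT. Rragb was called in its 4 pairs under each setting tried. Variation between animals was not measured. Within 1 counting SE of the threshold in size lay 5 members in Cx (Atg101, Atg10, Optn and Stx17, called, and Rb1cc1, not called) and 7 in M (Atg2a, Atg10, Rragc and Tsc2, called, and Atg101, Atg3 and Rheb, not called), and other depths were not tried.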
